A study of Mus musculus with 6 samples.

Results

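The 9 genes described here, Pdss2, Coq2, Coq3, Coq5, Coq6, Coq7, Coq8a, Coq9 and Coq10a, encode proteins that make coenzyme Q or help it to work. They were chosen by name, from the Ensembl identifiers that carry these symbols, and all 9 were found among the 39177 rows of the deposited count files, of which 39142 are nuclear genes. Knockout libraries came from 3 mice in which both Polrmt alleles carried loxP sites around exon 3 and cre under the muscle creatine kinase promoter excised that exon (L/L, cre). The labels give the genotype of these mice as Polrmt -/-. Control libraries came from 3 mice with the same loxP-flanked alleles and no cre (L/L), whose genotype the labels give as Polrmt +/+. All mice were C57BL/6N, aged 3 to 4 weeks, and the RNA was isolated from crude heart mitochondria. This promoter drives cre in heart and skeletal muscle cells and not in the other cells of the heart. Polrmt encodes the RNA polymerase of mitochondria.

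Coenzyme Q, or ubiquinone, is a lipid of the mitochondrial inner membrane that carries electrons from complex I, complex II and other dehydrogenases to complex III. Its isoprenoid tail is built from products of the mevalonate pathway and is joined to a ring derived from tyrosine. A group of COQ proteins on the matrix side of the inner membrane then adds hydroxyl and methyl groups to that ring. All of these proteins are encoded in the nucleus. The heart has a high demand for coenzyme Q, and inherited defects of the pathway cause disease of muscle, brain and kidney in humans.

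Gene-assigned counts were between 1062030 and 1227997 in knockout libraries and between 2867067 and 3234729 in control libraries. Transcripts of mtDNA made up between 21.1% and 25.8% of counts in knockouts and between 79.5% and 83.5% in controls, so the libraries were scaled on their nuclear counts (838015 to 910826 in knockouts and 499334 to 586461 in controls). Without 5 loci that collect reads of cytosolic rRNA, between 126339 and 164004 nuclear counts per library were left in knockouts and between 76949 and 109351 in controls. Levels below are CPM, counts scaled to 1000000 nuclear counts after TMM scaling, so every change is relative to the other nuclear transcripts in the preparation. At this depth 3 counts, taken as the limit of detection, stood for 3.10 to 4.09 CPM in knockouts and 4.77 to 6.60 CPM in controls. Polrmt had 2, 5 and 1 counts in knockouts and 3, 2 and 1 in controls, and a count over the whole gene does not resolve exon 3. Heart muscle markers were present in all libraries, with a summed level between 10678 and 11547 CPM in knockouts and between 11338 and 13494 CPM in controls over 8 genes. Of 6 skeletal muscle markers, 5 had no count in any library.

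The summed level of the 9 genes was nearly the same in both genotypes. The sum was 171.6, 184.7 and 170.7 CPM in knockouts, against 167.1, 179.04 and 175.1 CPM in controls. The groups overlapped, and the means of 176 ± 7.84 CPM in knockouts and 174 ± 6.07 CPM in controls (SD, n = 3 each) gave a ratio of 1.01. These levels rest on 126, 155 and 165 counts in knockouts and 76, 112 and 110 counts in controls. The near equality depends on which genes are summed. The log2 ratio was 0.016 for all 9 genes, 0.34 without Coq8a and -0.10 without Coq5, and the shorter sums were added after the data had been seen. The single genes did not all follow the sum: Coq5 rose, Coq8a lay lower in knockouts without passing the test, Coq9 overlapped between genotypes, and the other 6 had too few counts to test.

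**Figure D1:**
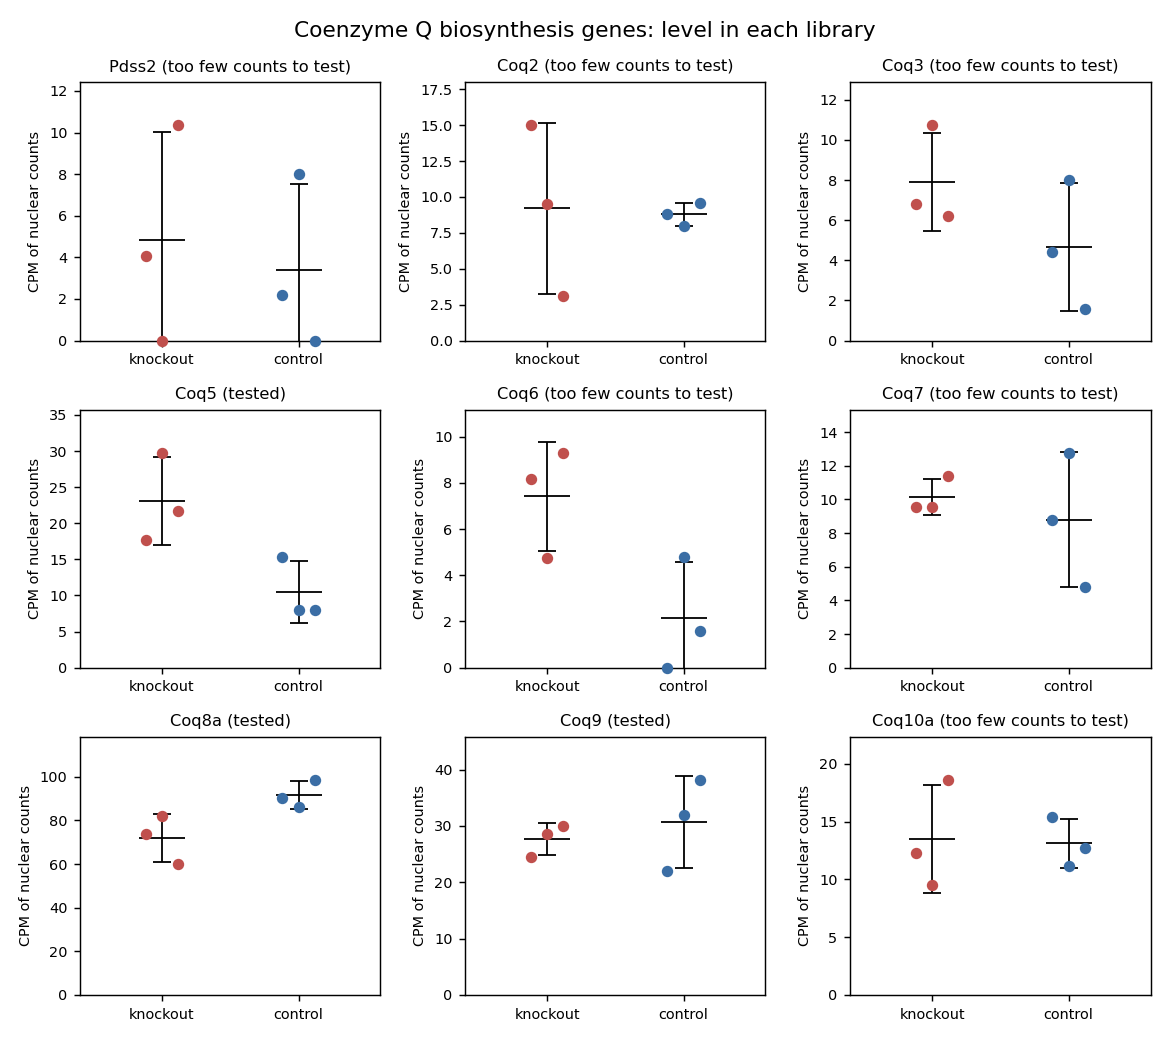
Level of each of the 9 genes, in CPM of nuclear counts on an axis that starts at 0, in 3 knockout libraries (red) and 3 control libraries (blue). Bars are mean ± SD. The 3 knockout points of Coq5, between 17.7 and 29.8 CPM, all lie above the control points, and those of Coq8a, between 59.99 and 82.2 CPM, all lie below them.

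Of the 9 genes, 3 had enough counts for the edgeR quasi-likelihood test, and 1 of these passed it, with a Benjamini-Hochberg adjusted p under 0.05. Across all 2351 nuclear genes tested, 15.3% passed, 8.46% as higher in knockouts and 6.85% as lower. With 3 genes tested, 1 call is not a share that can be set apart from this background. The other 6 genes did not pass the low-count filter. For them the counts are given with the ratio of summed counts per effective library, whose 95% exact interval covers counting error only and not the spread between mice.

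Coq5 (ENSMUSG00000041733, chromosome 5, 115279666 to 115296972, plus strand, GRCm38), the C-methyltransferase of the ring, was the gene that rose. It had 17.7, 29.8 and 21.7 CPM in knockouts, against 15.4, 7.99 and 7.96 CPM in controls. Every knockout lay above every control, with a narrow gap between knockout 1 and control 1, and 32.8% of all tested genes were likewise separated in either direction. The counts behind these levels were 13, 25 and 21 in knockouts and 7, 5 and 5 in controls. The fitted change was 2.30-fold (log2 fold change 1.20 ± 0.39 SE, 95% interval 0.43 to 1.97, edgeR adjusted p = 0.0224). Coq5 passed the low-count filter through the knockout libraries, all 3 of which reached its minimum of 14.04 unscaled CPM, while 0 of the 3 controls did. With a filter on the mean of all 6 libraries instead, added after the data had been seen, it was called again (log2 fold change 1.21, edgeR adjusted p = 0.0229). That filter had the same minimum, which 0 of the 3 controls reached, so Coq5 passed it too through the knockouts. That call is therefore no separate support.

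The rise of Coq5 rested on few counts, and its call was lost in several fits. The DESeq2 test gave a log2 fold change of 1.18 (DESeq2 adjusted p = 0.251), and edgeR without the low-count filter gave 1.23 (edgeR adjusted p = 0.0793). Left-out libraries gave log2 fold changes between 0.99 and 1.52, and the call was lost without knockout 2, without control 2 or without control 3 (highest edgeR adjusted p 0.128). In the authors' deposited table Coq5 had a log2 fold change of 1.22 and a false discovery rate of 0.0341, in a list where 5.12% of nuclear genes had a rate under 0.05.

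Coq8a (ENSMUSG00000026489, chromosome 1, 180165238 to 180199602, minus strand) encodes an atypical kinase-like ATPase of the inner membrane that the pathway needs. It was the most abundant of the 9, with 73.6, 82.2 and 59.99 CPM in knockouts, against 90.2, 86.3 and 98.7 CPM in controls. Every knockout lay below every control, and 32.8% of all tested genes were likewise separated in either direction. The gap between knockout 2 and control 2 was small beside the spread within each genotype. The difference did not pass the test (log2 fold change -0.36 ± 0.18 SE, 95% interval -0.71 to -0.0080, unadjusted p = 0.0452, edgeR adjusted p = 0.166). Counts were 54, 69 and 58 in knockouts and 41, 54 and 62 in controls, which makes Coq8a the gene of this group with the most precise level. The authors' deposited table gave Coq8a a log2 fold change of -0.35 and a false discovery rate of 0.323. Of its exon length, 6.92% overlaps Cdc42bpa on the opposite strand. Cdc42bpa had 73 counts in knockouts and 62 in controls, and the sources used here do not say whether reads were counted by strand.

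Of the 8 heart muscle markers, 4 were called lower in knockouts and 0 higher, where 6.85% of all tested genes were called lower, and the summed level of the 8 overlapped between genotypes. Tnnt2, a troponin, had a log2 fold change of -0.41, Actc1, the cardiac actin, one of -0.62, Pln, the regulator of the calcium pump, one of -1.08, and Ryr2, the calcium release channel, one of -1.22. The other 4 were not called: Myh6, the heart myosin that held most of the marker counts, had a log2 fold change of 0.0013, the myosin light chains Myl2 and Myl3 had 0.16 and -0.09, and the troponin Tnni3 had -0.22. The part of these changes in the level of Coq8a was not tested. In RNA of crude mitochondria, fewer cells of a type, less RNA per cell and less of a transcript carried into the preparation cannot be told apart.

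Coq9 (ENSMUSG00000031782, chromosome 8, 94838321 to 94854895, plus strand) encodes a lipid-binding protein that works with the COQ7 hydroxylase. It had 24.5, 28.6 and 29.996 CPM in knockouts, against 21.99, 31.97 and 38.2 CPM in controls. The knockouts lay inside the range of the controls, and no difference was called (log2 fold change -0.17 ± 0.27 SE, 95% interval -0.71 to 0.37, edgeR adjusted p = 0.729). The interval leaves room for a fall to 0.61-fold and for a rise to 1.29-fold. Its counts were 18, 24 and 29 in knockouts and 10, 20 and 24 in controls, and without control 3 the sign of this small change turned (log2 fold change 0.0064). The authors' deposited table gave Coq9 a log2 fold change of -0.16 and a false discovery rate of 0.857.

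Coq7 (ENSMUSG00000030652, chromosome 7, 118509659 to 118533356, minus strand), the hydroxylase of the next-to-last step and the partner of COQ9, had too few counts to test. It had 7, 8 and 11 counts in knockouts (10.1 ± 1.06 CPM), against 4, 8 and 3 counts in controls (8.79 ± 4.01 CPM; SD, n = 3 each). The groups overlapped, and the ratio of summed counts was 1.17 (95% exact interval 0.595 to 2.37). The log2 ratio of 0.22 was 0.65 without control 2 and turned to -0.12 without control 3.

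The other ring hydroxylase, Coq6 (ENSMUSG00000021235, chromosome 12, 84361657 to 84373796, plus strand), is a flavin-dependent monooxygenase. It had 6, 4 and 9 counts in knockouts, against 0, 3 and 1 counts in controls, or 7.42 ± 2.36 CPM in knockouts and 2.13 ± 2.44 CPM in controls (SD, n = 3 each). The groups touched at 4.77 CPM in knockout 2 and 4.80 CPM in control 2. The ratio of summed counts was 3.195 (95% exact interval 1.06 to 12.9), or 1.68 on the log2 scale, the one interval among the 6 untested genes that left out 1. Without control 2, which holds 3 of the 4 control counts, the log2 ratio was 3.00. Control 2 lay at the limit of detection of 3 counts and the other 2 controls below it. Fitted without the low-count filter, Coq6 had a log2 fold change of 1.63 ± 0.78 SE (unadjusted p = 0.0369) and was not called (edgeR adjusted p = 0.474).

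Coq3 (ENSMUSG00000028247, chromosome 4, 21879673 to 21912162, plus strand) encodes the O-methyltransferase of the ring, which acts at a pair of steps. It had 5, 9 and 6 counts in knockouts, against 2, 5 and 1 counts in controls, or 7.91 ± 2.45 CPM in knockouts and 4.66 ± 3.21 CPM in controls (SD, n = 3 each). Control 2, at 7.99 CPM, lay above 2 of the 3 knockouts, and the ratio of summed counts was 1.68 (95% exact interval 0.710 to 4.41). On the log2 scale this ratio was 0.75, and it was 1.49 without control 2 and 0.28 without control 3.

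Pdss2 and Coq2, the genes for the tail and its attachment, were detected at low levels. Pdss2 (ENSMUSG00000038240, chromosome 10, 43221486 to 43464882, plus strand), a subunit of the synthase that builds the isoprenoid tail, had 3, 0 and 10 counts in knockouts, against 1, 5 and 0 counts in controls. A library without counts occurred in each genotype, and the ratio of 1.46 (0.54 on the log2 scale) had an interval from 0.517 to 4.68. Its direction rests on single libraries: the log2 ratio was 2.46 without control 2, -0.89 without knockout 3 and -0.12 without control 3. Coq2 (ENSMUSG00000029319, chromosome 5, 100654723 to 100675140, minus strand), the prenyltransferase that joins tail and ring, had 11, 8 and 3 counts in knockouts, against 4, 5 and 6 counts in controls. Its levels of 9.21 ± 5.95 CPM in knockouts and 8.78 ± 0.778 CPM in controls (SD, n = 3 each) overlapped, with a ratio of 0.987 (95% exact interval 0.489 to 2.04). The knockouts lay on both sides of the narrow control range, with knockout 3 at 3.10 CPM and knockout 1 at 14.985 CPM. The log2 ratio of -0.019 was -0.53 without knockout 1 and turned to 0.45 without knockout 3 and to 0.051 without control 3.

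Coq10a (ENSMUSG00000039914, chromosome 10, 128363100 to 128368997, minus strand) encodes a lipid-binding protein that coenzyme Q needs for its function in respiration rather than for its synthesis. It had 9, 8 and 18 counts in knockouts, against 7, 7 and 8 counts in controls, which is 13.5 ± 4.66 CPM in knockouts and 13.1 ± 2.13 CPM in controls (SD, n = 3 each). The groups overlapped, and the ratio was 1.07 (95% exact interval 0.610 to 1.91). Knockout 3 holds 18 of the 35 knockout counts, and the log2 ratio of 0.098 turned to -0.27 without it and to -0.023 without control 2.

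**Figure D2:**
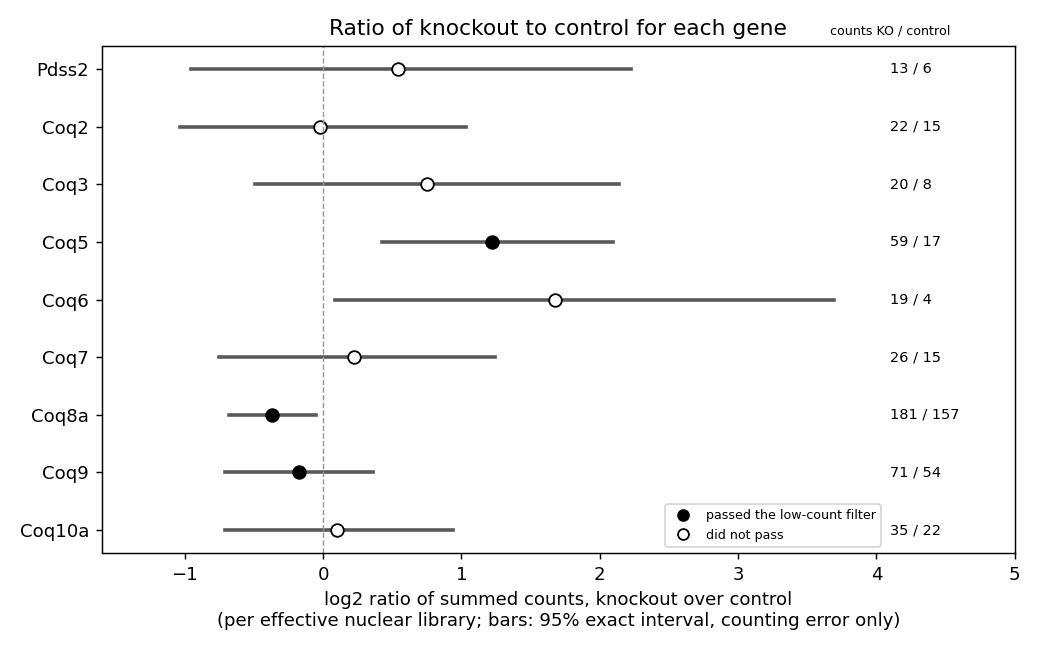
Log2 ratio of summed counts per effective nuclear library, knockout over control, for each of the 9 genes, with 95% exact intervals for counting error. Filled points passed the low-count filter and open points did not. The intervals of Coq5 and Coq6 lie above 0, that of Coq8a lies below 0, and the other 6 include 0.

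The make-up of the group needs no scaling, since each gene is set against the sum of the 9 in its own library; these shares were examined after the levels had been seen. Coq5 made up 13.1% ± 2.92 of the group's counts in knockouts and 6.07% ± 2.72 in controls (SD, n = 3 each). Its share was 10.3%, 16.1% and 12.7% in knockouts, against 9.21%, 4.46% and 4.55% in controls, and the exact 95% intervals of knockout 1 (5.61 to 17.0) and control 1 (3.78 to 18.1) overlapped widely. Coq8a made up 40.8% ± 4.997 in knockouts and 52.8% ± 4.19 in controls (SD, n = 3 each), a difference of -12.0 points. The shares of a library add up to a whole, so a larger share of Coq5 or another gene leaves less for Coq8a. The lower share of Coq8a is therefore no separate support for a lower level. For both genes the genotypes did not overlap, as their levels did not, so the shares are given with no test. Of all tested genes, 32.8% were separated in level in either direction. The other 7 shares overlapped between genotypes.

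Coq5 and Coq8a were set against each other after their levels had been seen to separate in opposite directions, so their ratio had to separate too and is a description. Coq5 had 24.1, 36.2 and 36.2 counts per 100 counts of Coq8a in knockouts, against 17.1, 9.26 and 8.06 in controls. The means were 32.2 ± 7.01 in knockouts and 11.5 ± 4.89 in controls (SD, n = 3 each). Coq9 gave 39.4 ± 9.23 counts per 100 counts of Coq8a in knockouts and 33.4 ± 7.83 in controls, with overlapping groups (SD, n = 3 each).

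**Figure D3:**
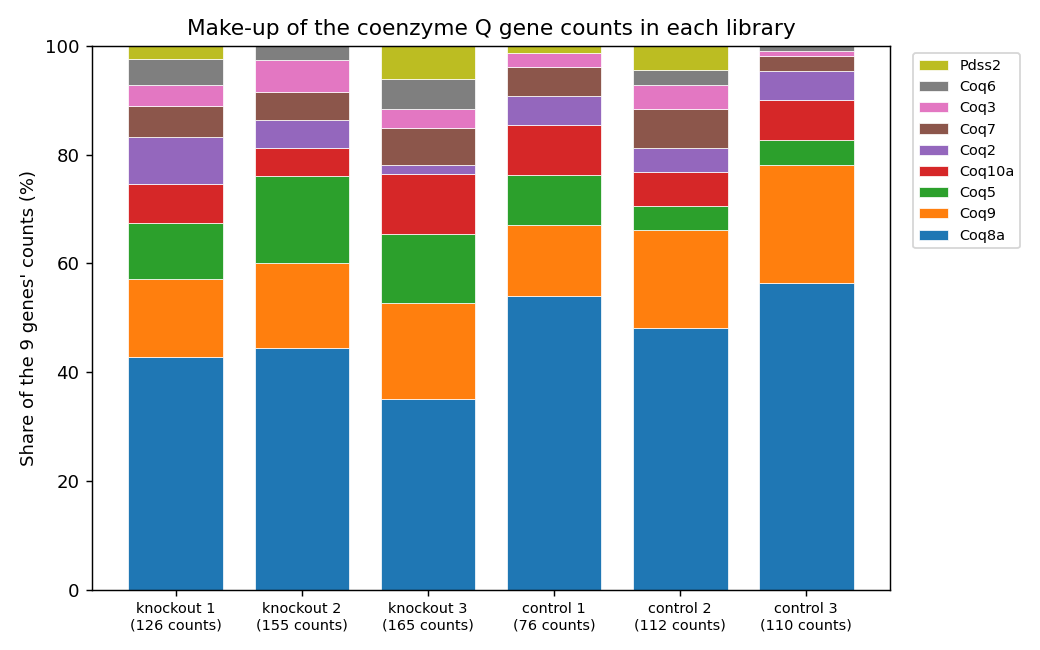
Share of each gene, in percent, in the counts of the 9 genes in each library, with knockouts on the left and the number of counts under each bar. Coq8a is the largest block in every library, at 35.2% to 44.5% in knockouts and 48.2% to 56.4% in controls, and the block of Coq5 is wider in the knockouts.

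Levels were compared between genes per kilobase of exon (CPM per kb), ordered by the mean of all 6 libraries. The length used is that of the merged exons of all annotated transcripts of a gene, which can exceed that of any single transcript. Coq8a stood first in this order, at 13.6 ± 2.12 CPM per kb in knockouts and 17.3 ± 1.19 in controls, and Coq9 second, at 9.07 ± 0.931 in knockouts and 10.1 ± 2.68 in controls (SD, n = 3 each). Coq8a was above Coq9 in 6 of 6 libraries, although their ranges overlapped between libraries. Coq5 followed with 7.61 ± 2.03 CPM per kb in knockouts and 3.44 ± 1.41 in controls, then Coq10a with 5.24 ± 1.81 in knockouts and 5.09 ± 0.826 in controls (SD, n = 3 each). The order of this pair turns in controls, and Coq5 was above Coq10a in 2 of 6 libraries. Coq2 averaged 3.51 CPM per kb in knockouts and 3.35 in controls, Coq3 2.64 in knockouts and 1.56 in controls, Coq6 2.36 in knockouts and 0.678 in controls, and Coq7 1.58 in knockouts and 1.37 in controls. Coq6 was above Coq7 in 3 of 6 libraries, and its mean was the lower of this pair in controls. Pdss2 was the lowest of the 9, at 0.807 CPM per kb in knockouts and 0.570 in controls. Every neighbouring pair in this order overlapped in range over the 6 libraries. Between the partner proteins COQ9 and COQ7, the transcript of Coq9 was the higher in 6 of 6 libraries, by 5.75 times per kilobase in knockouts and 7.36 times in controls. These ratios depend on the merged exon lengths, 3055 bp for Coq9 and 6434 bp for Coq7. In CPM, not divided by length, Coq9 had 27.7 in knockouts and 30.7 in controls, against 10.1 and 8.79 for Coq7. By CPM the means of Coq7 lay above those of Coq3 (7.91 and 4.66) and Coq6 (7.42 and 2.13).

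For 4 further genes of the pathway, which are no members of the group, 0 had enough counts to test. Coq8b, the paralog of Coq8a, had 3, 4 and 1 counts in knockouts, against 0, 0 and 1 counts in controls. Coq8a was the higher of this pair in 6 of 6 libraries, by 23.0 times per kilobase in knockouts, and the 1 control count of Coq8b is too few for a ratio of use in controls. Coq10b, the paralog of Coq10a, had 1, 5 and 8 counts in knockouts, against 2, 5 and 6 counts in controls, and Coq10a exceeded it per kilobase in 6 of 6 libraries. Pdss1, the other subunit of the tail synthase, had 3, 5 and 5 counts in knockouts, against 0, 1 and 2 counts in controls. Its groups did not overlap, and the ratio of 2.92 had an interval from 0.801 to 15.9. Of untested nuclear genes with summed counts in the range of the untested members, 16.4% did not overlap. Pdss1, with 13 counts in knockouts and 3 in controls, lies below that range, which starts at Pdss2 (13 and 6). Coq4, which the assembly of the COQ proteins needs, had 1, 2 and 0 counts in knockouts, against 0, 0 and 3 counts in controls.

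No gene was called in the 4 lists of genes that supply or use coenzyme Q, in which 17 of 35 genes found in the files were tested. The 3 genes of electron supply to COQ6 (Fdx1, Fdx1l and Fdxr) had no more than 5 counts in any library. Fdx1l shares 72.7% of its exon length with Gm38431 and 36.3% with Gm49373, on the same strand. Its low counts may therefore depend on how shared reads were assigned. Of 9 mevalonate pathway enzymes, which supply the tail, only Hmgcs1 had enough counts, at 16.99 ± 4.49 CPM in knockouts and 12.5 ± 4.55 CPM in controls (SD, n = 3 each). The log2 fold change was 0.39 with an SE of 0.39 (edgeR adjusted p = 0.565).

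Among enzymes other than complex I that pass electrons to coenzyme Q, 7 of 14 were tested and 0 were called, with a median log2 fold change of -0.09 beside -0.0068 for all tested genes. The range ran from -0.55 ± 0.23 SE for Etfb, a subunit of the electron transfer flavoprotein (edgeR adjusted p = 0.0929), to 0.39 ± 0.23 SE for Sdhd, a membrane anchor of complex II. Without control 1, Etfb passed the threshold (log2 fold change -0.70, edgeR adjusted p = 0.0448). Of the exon length of Etfb, 53.0% is shared with Gm45233 on the same strand. The sources used here do not say how reads in shared exons were counted. Sdha, the catalytic subunit of complex II, had 208 ± 14.9 CPM in knockouts and 240 ± 16.5 CPM in controls (SD, n = 3 each). The log2 fold change was -0.21 with an SE of 0.14 (edgeR adjusted p = 0.332).

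All 9 listed nuclear subunits of complex III, which takes electrons from coenzyme Q, were tested and 0 were called, with a median log2 fold change of -0.00069. Their summed level was 557 ± 26.1 CPM in knockouts and 573 ± 50.9 CPM in controls (SD, n = 3 each). Uqcrc1, a core subunit, had 154 ± 7.12 CPM in knockouts and 154 ± 13.8 CPM in controls (SD, n = 3 each).

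**Figure D4:**
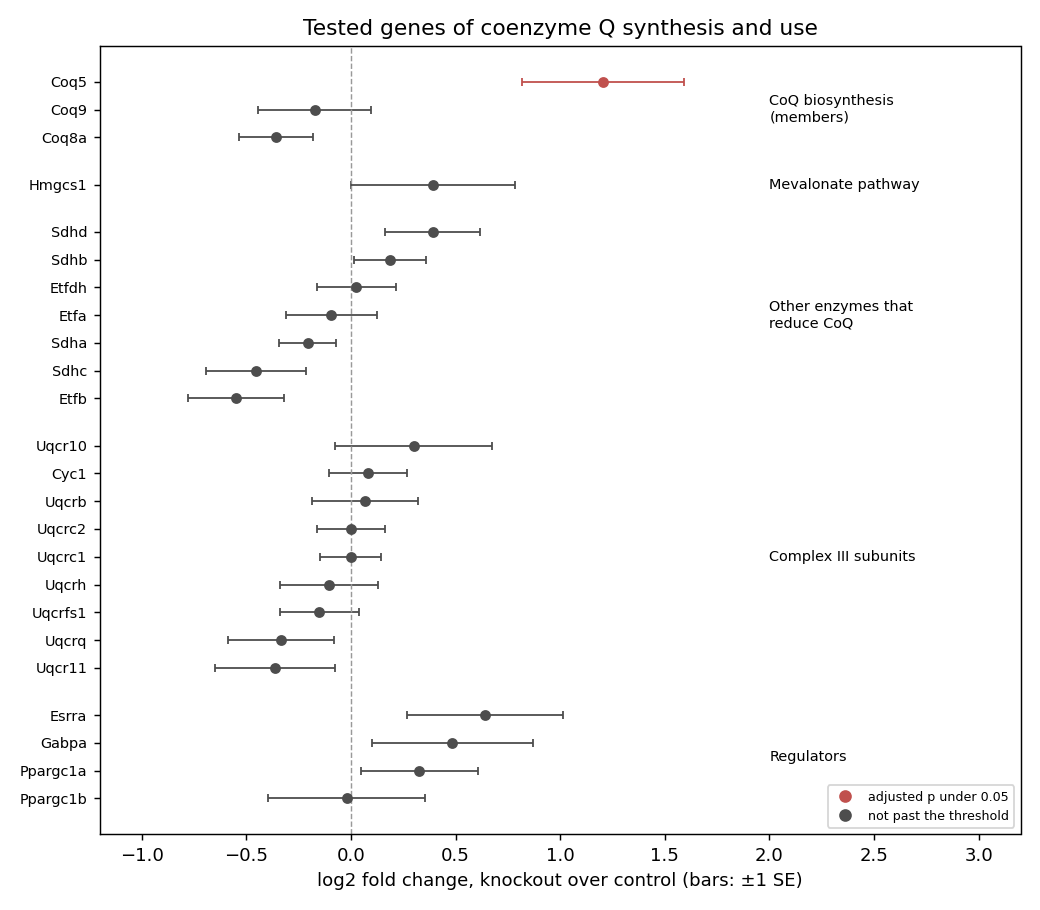
Log2 fold change, knockout over control, of the tested genes of coenzyme Q synthesis, its supply and its use, with bars of 1 SE. Coq5, at 1.20, is the gene past the threshold (red), and the nuclear complex III subunits lie between -0.36 and 0.30.

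Among 9 regulators of mitochondrial gene expression, 4 were tested and 0 were called: Ppargc1a, Ppargc1b, Esrra and Gabpa had log2 fold changes between -0.02 and 0.64 (lowest edgeR adjusted p 0.258). Esrrg, a nuclear receptor of the estrogen-related family, named here after its values were seen, did not pass the filter. It had 14, 12 and 23 counts in knockouts, against 1, 4 and 7 counts in controls, a ratio of 2.75 (95% exact interval 1.44 to 5.67). It was called higher where the filter kept genes with a mean of 5 counts (edgeR adjusted p = 0.0218, log2 fold change 1.43) and where mtDNA counts entered the totals (edgeR adjusted p = 0.0224, log2 fold change 1.36). In the setting with mtDNA counts, Esrrg passed the filter through the knockouts alone. Its control counts were there set against totals of 2867067 to 3234729, so that call is no separate support. The mean of the control counts lay under 5, so Esrrg passed the filter on a mean of 5 counts through the knockouts too. That call is no separate support either. In the authors' deposited table Esrrg had a log2 fold change of 1.50 and a false discovery rate of 0.0173.

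The authors' deposited table, which lists 6319 genes, holds 7 of the 9 genes, without Pdss2 and Coq6. In the authors' deposited table Coq2 had a log2 fold change of 0.03, Coq3 one of 0.78, Coq7 one of 0.23 and Coq10a one of 0.10, with false discovery rates between 0.561 and 0.99.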

How the data were processed

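RNA of crude heart mitochondria was sequenced in 6 libraries, with 1 mouse behind each. Per the submitters' processing notes, the authors' tools were HISAT (0.1.6), featureCounts (1.3.5-p4), edgeR (3.11.2) and R (3.2.0), with the build GRCm38. The deposited raw count files hold whole counts per gene, to which the authors applied no normalization. The authors' deposited table holds their own edgeR comparison. Per the file headers its columns are a log2 change, a mean log2 level, a score (the likelihood ratio), a p-value and its FDR. The deposited normalised values were not used, since their scaling is not stated.

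Symbols and coordinates came from GENCODE M21 (GRCm38). Raw counts of nuclear genes, with nuclear totals as library sizes, were filtered with filterByExpr (minimum count 10, minimum total 15, which is 14.04 CPM in 3 libraries). They were scaled by TMM and tested in edgeR 4.0.16 (R 4.3.3) by the robust quasi-likelihood test with no covariate, 2-sided. P-values were adjusted over 2351 genes. Every SE was derived from the F statistic. Intervals for shares are exact (Clopper-Pearson) and, like the 3-count floor, cover counting error only. DESeq2 1.42.0, other scalings, filters and totals, the replicate block and left-out libraries were alternatives. The procedure was tested on simulated data. Replicates differed beyond sampling noise (chi-square per degree of freedom 1.19 to 1.43). All 9 genes and all calls among the listed genes are named, with the other genes of the pathway. The genes and lists were chosen with earlier results of these data known, and p-values measure only the spread between these samples.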

Additional observations from a re-analysis of the deposited data

How the results depend on the processing

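Of the 9 genes, 1 (Coq5) was called in edgeR with DESeq2 size factors, with no scaling, without the 5 rRNA-collecting loci, with mtDNA counts included, with either filter on the mean (added after seeing the data) and with the replicate block, and 0 were called without the low-count filter or by the DESeq2 test. Except with the filters on the mean, the fits that called Coq5 used the low-count filter. In the main fit Coq5 passed that filter through the knockouts (3 of 3, against 0 of 3 controls), so these calls are not independent of that selection. The filter on the mean CPM of all 6 libraries had the same minimum, which 0 of 3 controls reached, so its call is not independent either. Without the filter, edgeR gave unadjusted p-values of 0.0018 for Coq5 and 0.0369 for Coq6, which did not pass after adjustment over 14207 genes. In the main fit, 341 of 2351 tested genes were higher and 325 lower at an unadjusted p under 0.05. That share was not computed without the filter. The count with 1 library left out was between 0 and 1. Coq8a kept its direction and stayed uncalled in 6 fits with a library left out and 9 other settings. Coq9 had log2 fold changes between -0.33 (without control 1) and 0.0064 (without control 3, where its sign turned), uncalled in all. The log2 ratio of the pooled level, 0.016 as reported, was -0.080 with no scaling, -0.062 with mtDNA counts included, -0.10 without Coq5 and 0.34 without Coq8a; the last 2 sums were added after seeing the data. In the other lists, 0 genes were called as reported. With mtDNA counts included or with a mean of 5 counts, 1 (Esrrg) was called, and in each of these settings Esrrg passed the filter through the knockouts. Between 0 and 1 were called with a library left out (Etfb without control 1). Of all calls, 55.3% were higher in knockouts, against 44.5% with no scaling.

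Replicate numbers did not pair the samples: same-numbered libraries had correlations of their deviations between -0.0098 and 0.066, and the block left 203 genes higher and 162 lower, against 199 and 161 without it. Over all genes, DESeq2 called 93 higher and 50 lower, and 142 higher and 103 lower were called without knockout 1. Depth limits all of this: a median tested gene had 17.5 counts per library, and 6 of the 9 genes did not pass the filter.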

Other observations

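By the rule for likeness of pattern, the nuclear genes whose level followed the pooled level of the 9 genes most closely over the 6 libraries were Aff4 (Pearson r 0.998), Maged1 (0.975) and Rilpl1 (0.952), the highest among 1174 genes searched. None of the 3 was called (log2 fold changes 0.08, -0.03 and -0.02, edgeR adjusted p between 0.884 and 0.973), and the libraries share their scaling factors, so these values are a description only.

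Among markers of other cells of the heart, the sums for macrophages, for smooth muscle and pericytes and for endothelium were lower in every knockout than in any control. The sum for fibroblasts was not. The summed level of 6 macrophage markers was between 36.8 and 47.6 CPM in knockouts and between 92.7 and 121 CPM in controls, with Csf1r and Mrc1 lower among 2 tested. That of 6 smooth muscle and pericyte markers was between 185 and 275 CPM in knockouts and between 310 and 365 CPM in controls, with Acta2 and Pdgfrb lower among 4 tested. That of 6 endothelial markers was between 211 and 247 CPM in knockouts and between 266 and 325 CPM in controls, with 0 of 5 tested markers called. Fibroblast markers overlapped between genotypes, with 0 of 6 called. Of all tested genes, 6.85% were called lower in knockouts. Single genes were separated in level, in either direction, in 32.8% of cases, and no such share was computed for sums of genes. The part of these cells in the levels of the coenzyme Q genes was not tested.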
